A study of Oryza sativa with 12 samples.

Results

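The cyclins and cyclin-dependent kinases of rice (Oryza sativa) were read in RNA-seq tables of the shoot apical meristem (SAM) and of the leaf blade. A gene was a member if the description in either table named a cyclin of a lettered class or a cyclin-dependent kinase (CDK), which also takes in the CDK inhibitors and the CDK regulatory subunit. The rule gave 79 loci of the 38867 genes in the SAM table and the 38685 in the blade table, with 59 described so in the SAM table, 33 in the blade table and 13 in both. They comprise 6 A, 8 B, 11 D, 10 P, 6 F and 4 T cyclins, 1 each of classes C, H and L, 16 CDKs of types A to G, 5 inhibitors and 1 regulatory subunit. The remaining 9 loci carry descriptions that conflict between or within the tables, such as a proteasome assembly factor, and were kept apart from the classes.

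Most CDKs phosphorylate their targets only when a cyclin is bound to them. In plants, D cyclins pair with A-type CDKs to inactivate the retinoblastoma-related protein and open the way to DNA synthesis, A cyclins act from DNA synthesis to the entry into mitosis, and B cyclins with the plant-specific B-type CDKs drive mitosis. The shoot apical meristem is the dividing tissue from which leaves and, later, the inflorescence arise, whereas an expanded blade consists mainly of cells that have left the cycle.

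The groups used were WT SAM and myb110 SAM, with 3 libraries each from pools of 20 plants, and WT blade, with 3 libraries from pools of 5 plants. All plants grew in the field and were sampled 1 month after transplanting, the blade being the first new one of the main stem. WT plants have an intact MYB110, a MYB transcription factor that the series places in a flowering-time module, and myb110 is a mutant of that gene whose allele the labels do not describe. The spread behind every p-value is therefore that of pools, not of single plants. In bulk tissue, fewer cells of a type and less RNA per cell cannot be told apart.

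Total deposited counts ran from 14112966 to 18896372 in the 6 SAM libraries and from 13916765 to 21012647 in the 3 blade libraries. The tissue of each table is known from its name. The blade columns used carry the letter W, which was read as WT because it is the first letter of WT and of no other labelled group, and no label spells this out, so the blade values rest on that reading. The locus taken here as MYB110, Os10g0478300, held 6, 0 and 1 counts in the WT SAM libraries and 0, 0 and 0 in the myb110 SAM libraries, too few to check the genotype labels. Class I KNOX genes, which mark the shoot meristem, summed to 273 FPKM (fragment counts scaled to transcript length and library depth) in WT SAM, 273 in myb110 SAM and 0 in WT blade. Of the 3 tested, OSH1 fell in myb110 by 0.09 ± 0.03 on the log2 scale (edgeR adjusted p = 0.0337, lost with DESeq2, limma and 4 of the 6 single libraries left out), OSH15 was at 0.11 ± 0.04 with separate libraries (0.0582) and OSH71 at 0.10 ± 0.05. The 12 antenna protein genes of leaf mesophyll summed to 790 FPKM in WT SAM, from 752 to 826 over the libraries, against 258 in myb110 SAM, from 250 to 269, and 27513 in WT blade. In myb110 SAM 11 of these 12 genes fell, so a marker of green tissue moves with the genotype beside every SAM result given here, and its part in them was not tested.

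In the mutant SAM, 1 D cyclin more than doubled its level, most B cyclins fell slightly, and the kinases, inhibitors and regulatory subunit mostly did not pass the test. Of the 66 members with enough counts to be tested, 8 rose and 11 fell in myb110 by edgeR's quasi-likelihood test at an adjusted p below 0.05. That is 28.8% of them, beside 22.6% of all tested genes, of which 10.9% rose and 11.7% fell. The libraries of the 2 genotypes did not overlap for 23 members, and over all tested genes for 36.1%. Only CYCD5-3 changed at least 2-fold, and the other 18 changed by less than 1.5-fold. The median log2 change of the tested members was -0.01, beside 0.00 for all tested genes.

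**Figure D1:**
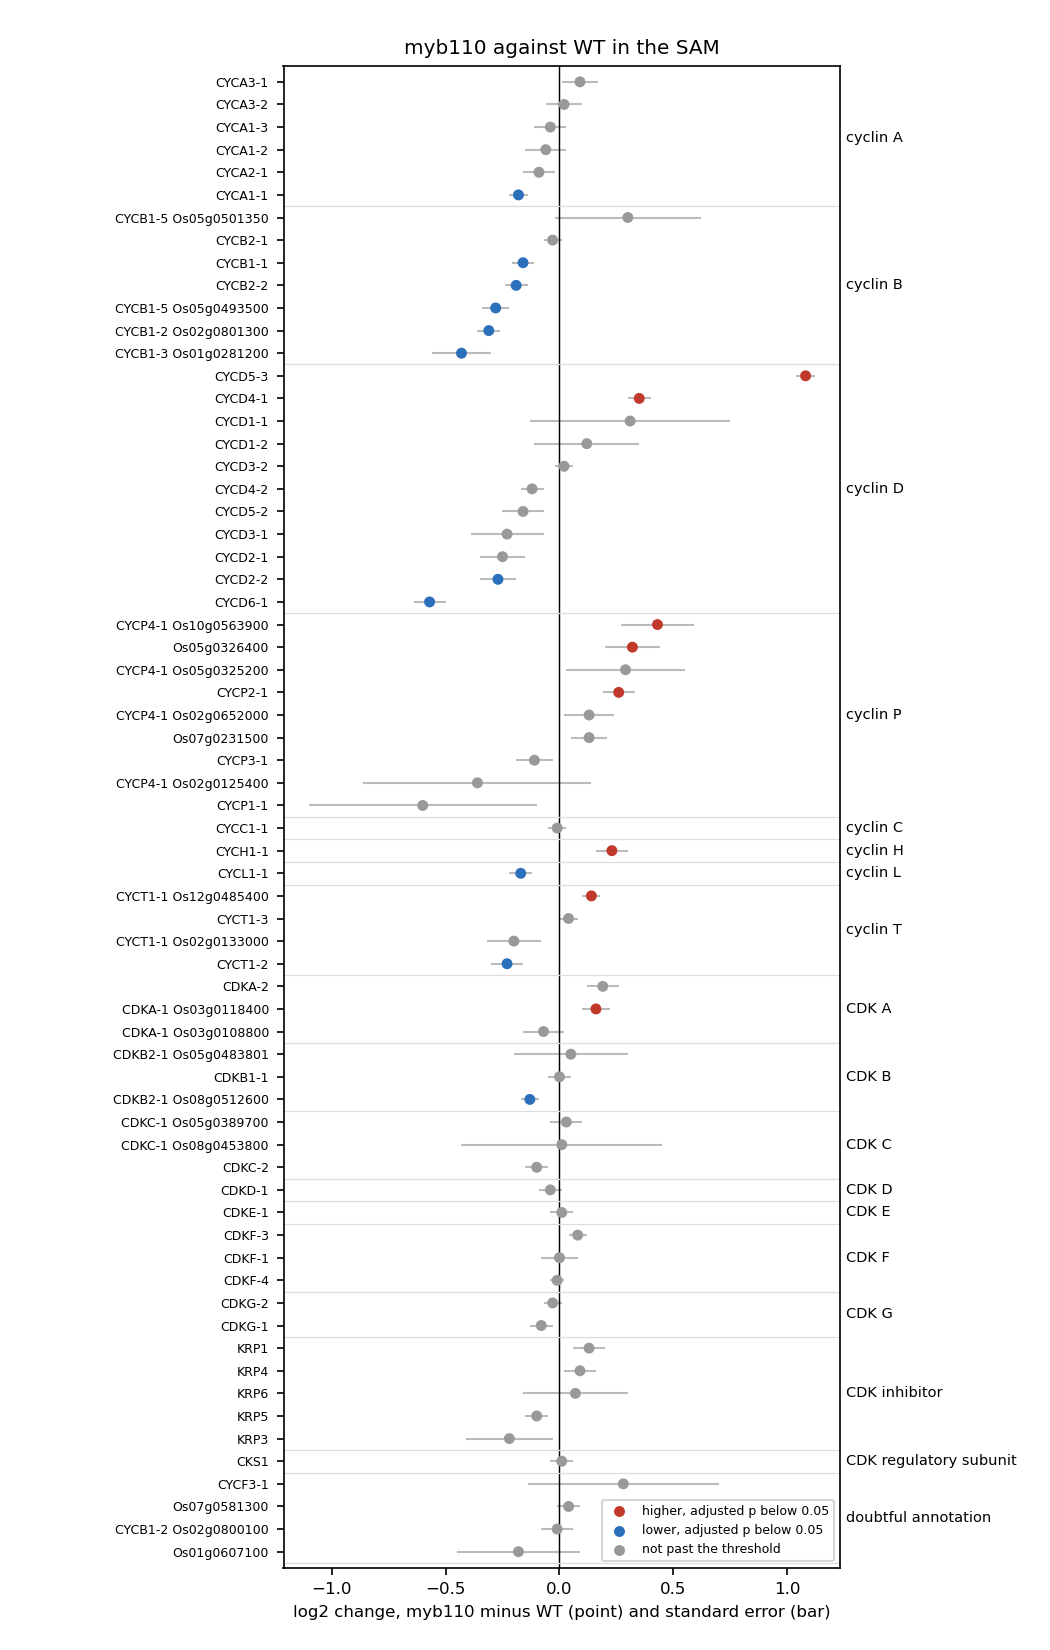
The log2 change of each tested member in the SAM, myb110 minus WT, with its standard error, in order of class. CYCD5-3 stands at 1.08 on the right, and 6 of the 7 tested B cyclins lie left of 0, the seventh being a locus with few counts.

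CYCD5-3 (Os03g0203800), a D cyclin, had the largest change of any tested member. Its level, in CPM (counts scaled to library depth), was 65.8, 72.7 and 67.0 in the WT libraries and 146, 144 and 147 in the myb110 libraries. Every mutant library was above every WT library. The log2 change was 1.08 ± 0.04 (SE, n = 3 per genotype), with an edgeR adjusted p of 1.67e-21. Per gene length, its mean level of 36.4 FPKM in WT was below that of CYCD3-2 (56.4), CYCD4-1 (48.0) and CYCD4-2 (41.2), and in myb110 its 77.3 FPKM was the highest of the 11 D cyclins.

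The D cyclins moved in both directions, with 2 that rose, 2 that fell and 7 that did not pass, 36.4% called beside 22.6% of all tested genes. CYCD4-1 (Os09g0466100) had 68.4, 61.6 and 64.6 CPM in WT and 83.5, 77.1 and 86.2 in myb110, a log2 change of 0.35 ± 0.05 (edgeR adjusted p = 1.84e-06). CYCD6-1 (Os07g0556000) had 46.1, 41.7 and 48.1 CPM in WT and 29.7, 32.4 and 29.2 in myb110, a log2 change of -0.57 ± 0.07 (edgeR adjusted p = 3.58e-08). Neither gene's genotypes overlapped. CYCD2-2 (Os07g0620800) fell from 29.9, 33.3 and 31.2 CPM to 28.1, 25.3 and 25.1, a log2 change of -0.27 ± 0.08 (edgeR adjusted p = 0.00881), and this call failed when WT replicate 2 (0.0716) or myb110 replicate 3 (0.0516) was left out. CYCD3-2 (Os09g0111100), the D cyclin with the highest level per gene length in WT, had a log2 change of 0.02 ± 0.04. Of the others, CYCD2-1 and CYCD4-2 had separate genotypes without passing (log2 changes of -0.25 ± 0.10 and -0.12 ± 0.05, edgeR adjusted p of 0.0794 and 0.0659). The sum over the D cyclins was 271 FPKM in each WT library and ran from 302 to 307 FPKM in myb110. Without CYCD5-3, the other 10 summed to 234 FPKM in WT, from 232 to 236, and to 227 in myb110, from 225 to 229.

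Among the B cyclins, 5 of the 7 tested members fell and none rose, with a median log2 change of -0.19. The share called was 71.4%, beside 22.6% of all tested genes called and 11.7% lower. CYCB1-2 at Os02g0801300 had 83.2, 78.6 and 74.2 CPM in WT and 67.1, 57.7 and 65 in myb110, a log2 change of -0.31 ± 0.05 (edgeR adjusted p = 3.52e-05). CYCB1-5 at Os05g0493500 had 51.4, 51.5 and 50 CPM in WT and 40.9, 43.2 and 41.6 in myb110, a log2 change of -0.28 ± 0.06 (edgeR adjusted p = 0.000302). CYCB2-2 (Os06g0726800) had 63.7, 62.7 and 62.0 CPM in WT and 53.5, 53.8 and 57.8 in myb110, a log2 change of -0.19 ± 0.05 (edgeR adjusted p = 0.00771). In all 3 the mutant libraries lay below the WT libraries, and these calls held under every alternative tried.

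The other B cyclins were less certain. CYCB1-3 at Os01g0281200 had 11, 9.78 and 11.3 CPM in WT and 7.11, 8.02 and 8.58 in myb110, a log2 change of -0.43 ± 0.13 (edgeR adjusted p = 0.0146). CYCB1-1 (Os01g0805600) had 78.4, 85.5 and 79.7 CPM in WT and 71.9, 75.0 and 71.7 in myb110, a log2 change of -0.16 ± 0.05 (edgeR adjusted p = 0.0141). The call of CYCB1-3 was lost without WT replicate 3 (0.0621), without myb110 replicate 1 (0.0767) and with DESeq2 (0.0514), and that of CYCB1-1 without WT replicate 2 (0.130), myb110 replicate 1 (0.054) or myb110 replicate 3 (0.0669). Without myb110 replicate 1, 3 B cyclins were called lower in place of 5. CYCB2-1 (Os04g0563700), one of the B cyclins with the highest level per gene length in WT, did not pass, at 106, 100 and 107 CPM in WT and 104, 103 and 99.6 in myb110. A second CYCB1-5 locus, Os05g0501350, had 75 counts in the WT libraries together and 87 in myb110, and a second CYCB1-3 locus, Os02g0627800, had 0 and 3.

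The class of Os02g0801300 is less sure than its description. The blade table calls it similar to cyclin B1-2, but also lists proteasome assembly among its processes, and 3 loci that share its symbol are described in the blade table as proteasome maturation factors. Without it, 4 of 6 tested B cyclins fell.

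Of the 6 A cyclins, 1 fell, 16.7% called beside 22.6% of all tested genes. CYCA1-1 (Os01g0233500) had the highest level of the class per gene length in WT and gave 94.6, 104 and 103 CPM in WT and 89.3, 87.9 and 90.2 in myb110. The genotypes did not overlap, with a log2 change of -0.18 ± 0.04 (edgeR adjusted p = 0.00285) that held under every alternative tried. The other 5 A cyclins had log2 changes from -0.09 to 0.09 and overlapping libraries. The summed level of the A, B and D cyclins was 633 FPKM in WT SAM, from 625 to 640 over the libraries, and 637 in myb110 SAM, from 634 to 640. By class, the sums in WT and myb110 were 135 and 128 FPKM for A, 227 and 204 for B, and 271 and 305 for D. The B sum ran from 226 to 228 over the WT libraries and from 203 to 205 over the myb110 libraries, so a level total hides opposite moves.

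**Figure D2:**
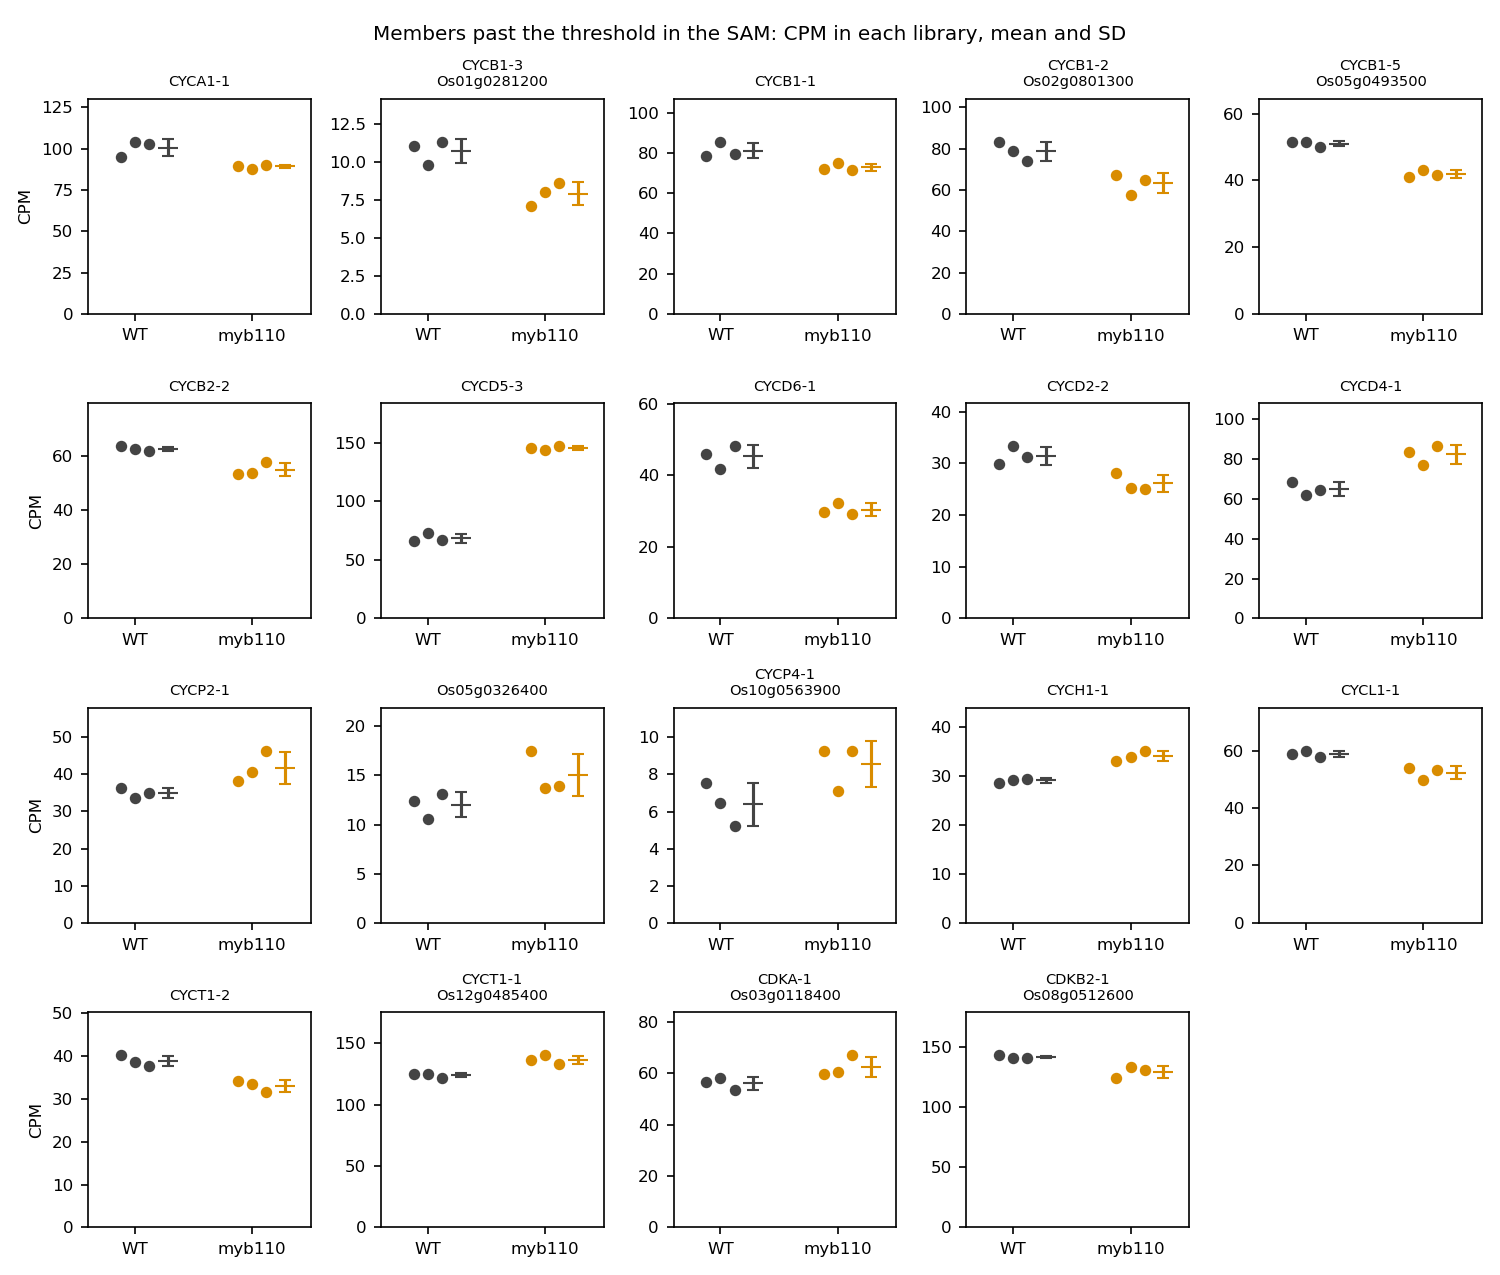
CPM in each SAM library for the 19 members that passed the test, with the mean and SD (n = 3) beside the points, on axes that start at 0. The WT and myb110 points are separate for 18 of the 19, CYCP4-1 at Os10g0563900 being the exception, and CYCD5-3 shows the widest gap. The test chose these 19 from the same libraries, so their separation adds no support.

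Of the 16 CDKs, 1 rose, 1 fell and 14 did not pass, 12.5% called beside 22.6% of all tested genes. CDKA-1 at Os03g0118400, of the type that serves the whole cycle, had 56.6, 58.3 and 53.4 CPM in WT and 59.8, 60.6 and 66.9 in myb110, a log2 change of 0.16 ± 0.06 (edgeR adjusted p = 0.0345). The groups were separate by a small margin, and the call was lost with DESeq2 (0.106), with limma (0.0850), and without WT replicate 1 (0.0609), WT replicate 3 (0.154) or myb110 replicate 3 (0.289). CDKA-2 had separate genotypes without passing, with a log2 change of 0.19 ± 0.07 (edgeR adjusted p = 0.0576), and passed with limma (0.0287). CDKB2-1 at Os08g0512600, a mitotic kinase, had 143, 141 and 141 CPM in WT and 124, 133 and 131 in myb110, a log2 change of -0.13 ± 0.04 (edgeR adjusted p = 0.00916), which was lost without myb110 replicate 1 (0.0889). The second B-type kinase, CDKB1-1, had a log2 change of 0.00 ± 0.05.

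The kinases with transcriptional or activating roles did not pass, among them CDKC-2 (log2 change of -0.10 ± 0.05), CDKD-1 (-0.04 ± 0.05) and CDKE-1 (0.01 ± 0.05). CDKF-4 (Os02g0700600), which had the highest level of any member in WT SAM per gene length, had 316, 321 and 302 CPM in WT and 314, 309 and 310 in myb110. CDKG-2, of a type tied to splicing in Arabidopsis, had a log2 change of -0.03 ± 0.04. None of the 5 KRP genes, whose products bind and inhibit the CDK and cyclin complex, passed: KRP5, the one with the highest level per gene length, had a log2 change of -0.10 ± 0.05, and the others ran from -0.22 to 0.13. The regulatory subunit CKS1, a docking factor of the kinases, had a log2 change of 0.01 ± 0.05.

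The cyclins that serve transcription and kinase activation each moved little. CYCH1-1, whose product partners the D-type kinases that activate other CDKs, had 28.6, 29.2 and 29.4 CPM in WT and 33.1, 33.8 and 35.1 in myb110, a log2 change of 0.23 ± 0.07 (edgeR adjusted p = 0.0171), lost with DESeq2 (0.0515) and without myb110 replicate 3 (0.0846). CYCL1-1 fell from 58.7, 59.9 and 57.9 CPM to 53.8, 49.6 and 53.4, a log2 change of -0.17 ± 0.05 (edgeR adjusted p = 0.0190), lost with DESeq2 (0.0645) and without WT replicate 2 (0.0813) or myb110 replicate 2 (0.122). The T cyclins partner the C-type kinases that act on RNA polymerase II, and 1 rose, 1 fell and 2 did not pass. Their share called was 50%, beside 22.6% of all tested genes. CYCT1-2 fell from 40.2, 38.7 and 37.8 CPM to 34.3, 33.5 and 31.6, a log2 change of -0.23 ± 0.07 (edgeR adjusted p = 0.00938), lost without myb110 replicate 3 (0.0660). CYCT1-1 at Os12g0485400 rose from 125, 125 and 122 CPM to 136, 140 and 133, a log2 change of 0.14 ± 0.04 (edgeR adjusted p = 0.00672), lost without myb110 replicate 2 (0.0516). CYCC1-1, the partner of the E-type kinase in the Mediator complex, had a log2 change of -0.01 ± 0.04.

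P cyclins, also called U-type, are known in Arabidopsis and yeast for links to phosphate signalling, and 3 of the 9 tested rose. Their share called was 33.3%, beside 22.6% of all tested genes called and 10.9% higher. CYCP2-1 (Os04g0552300) had 36.2, 33.7 and 34.9 CPM in WT and 38.1, 40.7 and 46.3 in myb110, a log2 change of 0.26 ± 0.07 (edgeR adjusted p = 0.00495), lost without myb110 replicate 3 (0.112). Os05g0326400 had 12.4, 10.6 and 13.1 CPM in WT and 17.5, 13.7 and 13.9 in myb110, a log2 change of 0.32 ± 0.12 (edgeR adjusted p = 0.0395), lost with DESeq2 (0.116), with limma (0.0897) and without WT replicate 1 (0.0577), WT replicate 2 (0.223) or myb110 replicate 1 (0.282). CYCP4-1 at Os10g0563900 overlapped between genotypes, at 7.52, 6.48 and 5.20 CPM in WT and 9.24, 7.11 and 9.27 in myb110. Its log2 change of 0.43 ± 0.16 (edgeR adjusted p = 0.0452) was lost with DESeq2 (0.129), with limma (0.0823), with a replicate block (0.0504) and without WT replicate 2 (0.0970), WT replicate 3 (0.230), myb110 replicate 1 (0.150) or myb110 replicate 3 (0.193).

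The 13 members below the count filter include all 6 F cyclins, which were listed at 0 in all 6 SAM libraries. In all, 8 members had no count in the SAM, and the other 5 had between 2 and 59 counts over the 6 libraries. Of the 9 loci with conflicting descriptions, 4 were tested and none passed. The highest of them per gene length, Os02g0800100, which carries the symbol CYCB1-2 but is described in the blade table as a proteasome maturation factor, had a log2 change of -0.01 ± 0.07. There are 21 members that share a symbol with another member, and reads of near-identical copies may have been split between them.

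Other genes of the cell cycle were read from lists of their descriptions, leaving out the members, and each moved in few genes. Of the 22 tested genes for replication licensing and the sliding clamp, 4 rose and none fell, with a median log2 change of 0.02. That is 18.2% called, all higher, beside 22.6% of all tested genes called and 10.9% higher. ORC4, a subunit of the origin recognition complex, rose by 0.51 ± 0.09 on the log2 scale, from 15.5 ± 0.898 CPM (SD, n = 3) to 22.2 ± 1.60, and MCM7, part of the replicative helicase, rose by 0.26 ± 0.05, from 53.0 ± 1.16 to 63.6 ± 3.07. The third by p, gins3, rose by 0.17 ± 0.06, and its call was lost with DESeq2 and without any 1 of 4 libraries. Of the 9 tested retinoblastoma-related and E2F/DP genes 2 rose and none fell, 22.2% called, beside the same 22.6% called and 10.9% higher. DPB at Os01g0678700 rose by 0.24 ± 0.08 and E2FA at Os12g0158800 by 0.14 ± 0.05. Both were lost with DESeq2 and limma and without any 1 of 4 libraries, the second also with library totals.

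In the 3 lists of mitosis the genes called were all lower. Of the 9 tested mitotic kinase and checkpoint genes 2 fell, BUB1 by 0.26 ± 0.07 on the log2 scale and MAD2 by 0.20 ± 0.06, both spindle checkpoint genes. The call of BUB1 failed without WT replicate 2 or myb110 replicate 3, and MAD2 when WT replicate 3, myb110 replicate 2 or myb110 replicate 3 was left out. Of the 17 tested spindle and phragmoplast genes 3 fell, the microtubule genes KIN5C by 0.16 ± 0.04, MAP65-3 at Os01g0685900 by 0.18 ± 0.04 and MAP65-1 at Os06g0308300 by 0.08 ± 0.02, and all 3 were lost with limma and the last also without myb110 replicate 3. Of the 14 genes of the anaphase-promoting complex, which marks mitotic cyclins for destruction, only the activator FZR3 fell, by 0.22 ± 0.07, with overlapping genotypes and a call lost with DESeq2, with limma and without any 1 of 4 libraries. The median log2 changes of the 3 lists were -0.06, -0.11 and -0.01. The shares called, all lower, were 22.2%, 17.6% and 7.14%, beside 22.6% of all tested genes called and 11.7% lower.

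The comparison of WT SAM with WT blade asks how the members differ between these tissues. It shares the WT SAM libraries with the comparison of genotypes. Each tissue has a table of its own, so tissue and table cannot be told apart. The A, B and D cyclins together came to 633 FPKM in WT SAM and 37.9 in WT blade, from 37.0 to 38.6 over the blade libraries. Os02g0801300, whose class as a B cyclin is less sure, gave 19.5 FPKM of the SAM sum and 13.1 of the blade sum. CDKs came to 734 and 362 FPKM, and the C, H, L and T cyclins to 247 and 208. These sums carry depth scaling only. With the scaling of the tests, which lowers SAM against blade, the median log2 difference of the C, H, L and T cyclins was -0.06, so their sums give no direction.

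Of the 66 members tested, 48 were higher in SAM and 11 lower by edgeR's quasi-likelihood test. These calls cover 89.4% of the members, beside 86.4% of all tested genes, of which 44.3% were higher and 42.1% lower. The libraries were separate for 60 members, beside 87.9% of all tested genes, so the share called is near the background. The median log2 difference of the members, SAM minus blade, was 1.86, beside 0.05 for all tested genes. Scaling matters here: with library totals alone the median of all tested genes shifts to 0.62, and 58 members were higher and 5 lower. The calls over all genes were 51.3% higher with the main scaling and 64.4% with library totals.

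**Figure D3:**
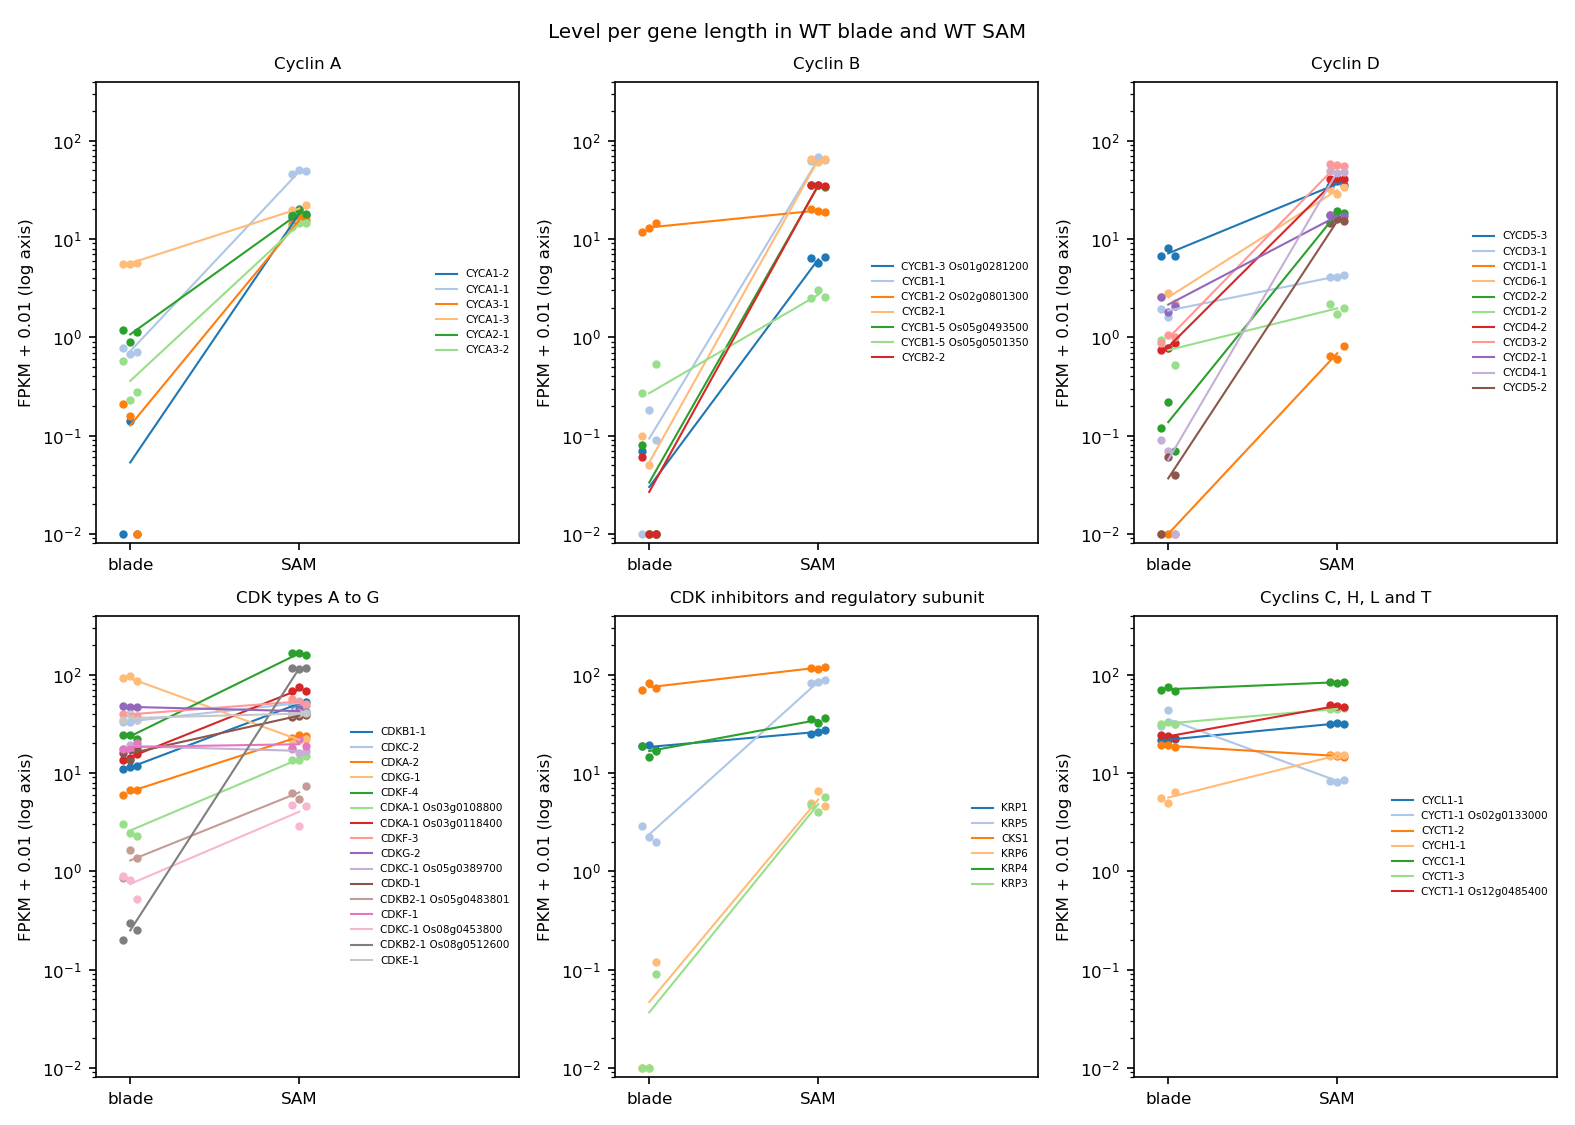
FPKM plus 0.01, on a log axis, in the 3 WT blade and 3 WT SAM libraries (points) with lines joining the means, for the tested members of each class but P. Lines for most A, B and D cyclins climb from under 3 FPKM in blade, whereas lines for the C, H, L and T cyclins and most CDKs are flatter.

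Every A cyclin was higher in SAM, with log2 differences from 1.28 to 8.35. CYCA1-1 had 45.5, 50.3 and 49.7 FPKM in SAM and 0.76, 0.67 and 0.70 in blade, a log2 difference of 5.52 ± 0.11 (edgeR adjusted p = 1.12e-17). CYCA1-3 was the least different, at 19.5, 19.9 and 21.9 FPKM in SAM and 5.62, 5.60 and 5.72 in blade. No library of 1 tissue reached the range of the other for any of the 6. Over all tested genes, 87.9% had separate libraries and 44.3% were called higher in SAM.

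The B cyclins were nearly absent from the blade counts, with Os02g0801300 as the exception. CYCB1-1 had 62.5, 68.3 and 63.7 FPKM in SAM and 0.00, 0.17 and 0.08 in blade, and the 3 blade libraries together held 5 counts against 4069 in SAM. CYCB2-1 had 4 counts in blade and 5196 in SAM. CYCB2-2 had 2 and 3134, a scaled ratio of 1175 with a 95% interval from counting alone of 325 to 9705. In all, 5 of the 7 tested B cyclins had 5 counts or fewer over the blade libraries, as did 1 A cyclin and 3 D cyclins. CYCB1-2 at Os02g0801300 had 20.4, 19.4 and 18.9 FPKM in SAM and 11.7, 12.9 and 14.6 in blade. Its log2 difference was -0.02 ± 0.08 with the main scaling (edgeR adjusted p = 0.794) and 0.55 with library totals, where it passed (8.39e-06).

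All 11 D cyclins were higher in SAM, beside 86.4% of all tested genes called and 44.3% higher. Their median log2 difference was 5.12, or 3.21 with the gene that had no blade count set at its bound. CYCD4-1 had 49.5, 46.6 and 48.0 FPKM in SAM and 0.08, 0.06 and 0.00 in blade, from 3224 and 3 counts, a scaled ratio of 806 with an interval of 275 to 3909. CYCD1-1 had 37 counts in SAM and 0 in blade and was at least 9.25-fold higher, with the blade group set to a floor of 3 counts in all. CYCD3-2 had 57.4, 56.5 and 55.1 FPKM in SAM and 0.86, 1.05 and 0.99 in blade, a log2 difference of 5.31 ± 0.10.

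Some D cyclins kept a level in the blade. CYCD5-3, the gene that more than doubled in the mutant SAM, had the highest blade level of the class, at 6.64, 8.03 and 6.72 FPKM against 34.9, 38.6 and 35.7 in SAM, a log2 difference of 1.79 ± 0.09 (edgeR adjusted p = 3.15e-12). CYCD6-1 followed with 2.57, 2.83 and 2.23 FPKM in blade and 32.0, 28.9 and 33.4 in SAM. CYCD3-1 had the smallest difference, 0.57 ± 0.18 (edgeR adjusted p = 0.00616). The call of CYCD1-2, at 0.83 ± 0.30 (0.0169), was lost without WT SAM replicate 1 (0.057) or WT blade replicate 3 (0.0907).

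**Figure D4:**
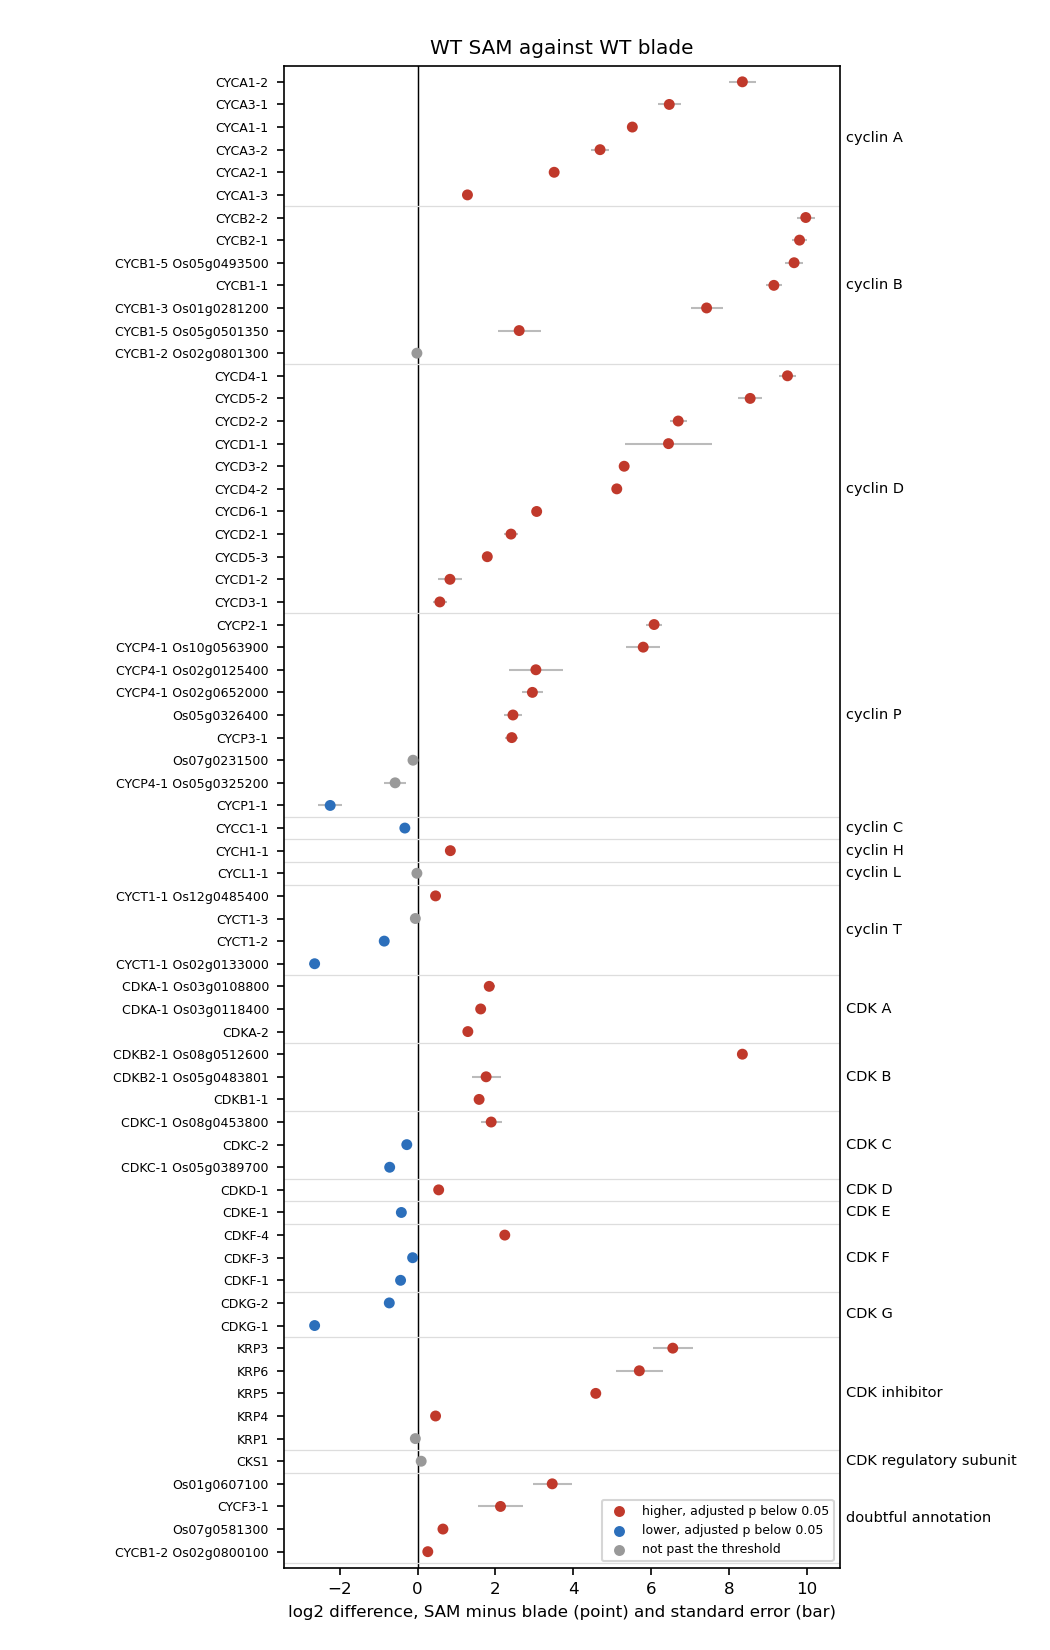
The log2 difference of each tested member, WT SAM minus WT blade with the main scaling, with its standard error, in order of class. The A, B and D cyclins lie from -0.02 to 9.98 and all but 1 to the right of 0, and 5 of the 11 members lower in SAM turn higher with library totals. CYCD1-1 had 0 blade counts, so its fitted point is no bound.

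All 3 A-type and all 3 B-type kinases were higher in SAM, beside 86.4% of all tested genes called and 44.3% higher. CDKA-1 at Os03g0118400 had 69.0, 75.1 and 67.8 FPKM in SAM and 13.6, 14.3 and 15.6 in blade, a log2 difference of 1.62 ± 0.08. CDKB2-1 at Os08g0512600 had 117, 115 and 116 FPKM in SAM and 0.19, 0.29 and 0.24 in blade, a log2 difference of 8.35 ± 0.12 (edgeR adjusted p = 3.50e-19), from 7082 and 16 counts. CDKB1-1, of the same type, kept 11, 11.5 and 11.8 FPKM in blade against 50.7, 49.3 and 52.7 in SAM. CDKF-4 was 165 FPKM in SAM and 23.6 in blade on average, and CDKD-1 38.3 and 15.8. The C and F types were mixed, each with 1 member higher and 2 lower: CDKC-1 at Os08g0453800 was higher in SAM by 1.89 ± 0.27 on the log2 scale, and the 4 lower ones are named with the G types.

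Both G-type kinases were lower in SAM, beside 42.1% of all tested genes. CDKG-1 had 21.5, 21.6 and 22.0 FPKM in SAM and 93.4, 96.4 and 85.3 in blade, a log2 difference of -2.65 ± 0.06 (edgeR adjusted p = 5.82e-17), and it stayed lower with library totals, at -2.08. CDKG-2 had a log2 difference of -0.73 ± 0.05, and -0.16 with library totals. Of the 11 members lower in SAM, 5 turned higher with library totals, namely CDKC-2, CDKE-1, CDKF-1, CDKF-3 and CYCC1-1, so no direction is given for those 5. The other 6 stayed below 0, and 5 of them passed there. The sixth, CDKC-1 at Os05g0389700, went from -0.72 ± 0.08 to -0.15 and lost its call with library totals (0.0713) and with limma (0.0742).

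Among the inhibitors, 4 of 5 were higher in SAM, 80% called, beside 86.4% of all tested genes called and 44.3% higher. KRP5 had 82.0, 84.2 and 88.0 FPKM in SAM and 2.91, 2.20 and 1.98 in blade, a log2 difference of 4.58 ± 0.11 (edgeR adjusted p = 1.74e-16). KRP3 and KRP6 had 2 counts each in the blade libraries and 291 and 161 in SAM, scaled ratios of 109 (interval 29.9 to 905) and 60.4 (16.4 to 503). KRP4 was 34.7 FPKM in SAM and 16.7 in blade, and KRP1 was 26.2 and 18.4, with a log2 difference of -0.06 ± 0.08 with the main scaling and 0.51 with library totals. CKS1 was 118 and 74.6 FPKM, with a log2 difference of 0.09 ± 0.07, and 0.66 with library totals, where it passed (edgeR adjusted p = 7.46e-08).

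The cyclins of transcription had a median log2 difference of -0.06, with 2 of 7 higher, 3 lower and 2 not past the threshold. That is 71.4% called, beside 86.4% of all tested genes called, 44.3% higher and 42.1% lower. CYCC1-1, 1 of the 3 lower ones, turned higher with library totals. CYCT1-1 at Os02g0133000 had 8.32, 8.16 and 8.39 FPKM in SAM and 30.1, 43.7 and 31.8 in blade, a log2 difference of -2.65 ± 0.15 (edgeR adjusted p = 1.61e-08) that was -2.08 with library totals. The other locus with this symbol, Os12g0485400, went the other way, at 48.2 FPKM in SAM and 23.6 in blade (log2 difference of 0.46 ± 0.05). CYCH1-1 was 15.1 and 5.61 FPKM, and CYCL1-1 was 31.9 and 21.8, with a log2 difference of -0.02 ± 0.06 with the main scaling and 0.55 with library totals.

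Of the 9 tested P cyclins 6 were higher in SAM and 1 lower, 77.8% called, beside 86.4% of all tested genes. CYCP2-1 had 28.1, 26.2 and 27.2 FPKM in SAM and 0.26, 0.06 and 0.41 in blade, a log2 difference of 6.08 ± 0.21 (edgeR adjusted p = 3.33e-14). CYCP1-1 was the one lower, at 1.39, 0.815 and 1.11 FPKM in SAM and 3.89, 2.89 and 3.70 in blade, a log2 difference of -2.25 ± 0.31. The F cyclins were listed at 0 in the blade too. The same lists of other cell cycle genes were mostly higher in SAM, with 8 of 9 mitotic kinase and checkpoint genes, 15 of 18 spindle and phragmoplast genes, 20 of 22 replication genes, 12 of 13 genes of the anaphase-promoting complex and 7 of 9 retinoblastoma-related and E2F/DP genes. Over all tested genes, 86.4% were called and 44.3% were higher in SAM. RBR1, a retinoblastoma-related gene, was 27.5 FPKM in SAM and 0.237 in blade. The other such gene, RBR2, was 22.8 and 17 FPKM. Its log2 difference was -0.15 ± 0.06 with the main scaling and 0.42 with library totals, so no direction is given for it.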

How the data were processed

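Total RNA was enriched for poly(A) mRNA and made into libraries with random primers, per the labels' protocols, and no step is described as marking strand, so a gene and its antisense or overlapping neighbour cannot be told apart. The submitters' processing notes name fastp as a tool. Aligner, counter, build and annotation were not given in the sources used here, and neither were the lengths behind the FPKM. The authors deposited estimated counts per gene and library, per the file headers, of which 12.0% to 13.4% in a library were not whole, and also FPKM, per the file headers, which correct for transcript length and depth.

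The series has 12 samples, and 9 libraries were used. Another 18 deposited columns, 6 of SAM and 12 of blade, were left unused because their names match no labelled group, so the genotypes in the blade, and whether the genotypes differ by tissue, were not analysed here. The tables were joined on the 37840 loci they share. Loci and symbols are those of the tables, no genome or sequence table was used, and no coordinates or sequences are given.

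After rounding of the estimated counts, genes were kept by filterByExpr (minimum count 10), which left 23167 for the genotypes and 24119 for the tissues, and TMM scaling gave factors from 0.998 to 1.00 and from 0.816 to 1.22. Tests used edgeR's quasi-likelihood fit with robust dispersion (edgeR 4.0.16, R 4.3.3) and Benjamini-Hochberg adjustment over all tested genes, at a threshold of 0.05. A standard error is the size of the log2 change divided by the root of the F statistic. Intervals of count ratios cover counting error only. Alternatives were DESeq2 1.42.0, limma 3.58.1 on log2(FPKM + 0.1), library totals, median-of-ratios scaling, no filter, a mean of at least 50 counts, a replicate block and leaving out each library. The scripts were tested on simulated counts.

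The members, the lists of other cell cycle genes, the tests and the naming rule were chosen with earlier results of these data known. The rule names every member past the threshold in the SAM, the member of each class with the highest FPKM in WT SAM, and up to 3 genes per list and direction. Members named beyond it, chosen after their values were seen, are CYCD2-1, CYCD4-2, CYCB2-1, CDKA-2, CDKB1-1, CYCA1-3, CYCD3-1, CYCD1-1, CYCD1-2, CDKG-1, CDKF-1, CDKF-3, KRP1, KRP3, KRP4, KRP6, CYCP1-1, Os05g0501350, Os02g0627800, Os02g0133000, Os08g0453800 and Os05g0389700, and, from the lists, RBR1, RBR2, OSH15 and OSH71.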

Additional observations from a re-analysis of the deposited data

How the results depend on the processing

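In the SAM, 8 members were higher and 11 lower in myb110. The higher count fell to 4 with DESeq2, and leaving out 1 library gave 4 to 7 higher, the 4 without myb110 replicate 3, and 8 to 11 lower. The count of 5 lower B cyclins ran from 3 to 5. Of the 19 calls, 7 held under every alternative tried. The main fit did not pair pools by replicate number. Deviations of same-numbered libraries correlated at -0.0235, -0.0313 and 0.0102 between genotypes and at -0.00114, 0.0187 and 0.00684 between tissues. These values show no shared deviation over the genes but cannot tell whether same-numbered pools were handled together. A fit with the replicate block gave 7 higher and 11 lower members and 4976 called genes in place of 5233, and 48 and 11 members between tissues. Between tissues the count of 11 lower members was 5 with limma and with library totals, and leaving out 1 library gave 47 to 49 higher and 10 to 13 lower, and 22 to 23 higher A, B and D cyclins. Of the 59 calls between tissues, 54 held under every alternative tried. Limma, the other scalings but library totals, the filter of 50 counts, the block and leaving out SAM libraries were chosen for the tissues after seeing the data, as were the counts of B and of A, B and D cyclins.

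In the SAM, 17 tested members changed sign under at least 1 alternative, and 0 of them were called. Outside the naming rule, CDKC-1 at Os08g0453800 went from 0.01 to -0.45 without myb110 replicate 3. Those that the rule names were CDKF-4 (0.08 with limma, and -0.03 to 0.01 with 1 library left out), CDKD-1 (0.00 with limma) and, with 1 library left out, Os02g0800100 (-0.06 to 0.06), CKS1 (-0.02 to 0.04), CDKG-2 (-0.05 to 0.01) and CYCC1-1 (-0.03 to 0.00). Between tissues 11 tested members changed sign, 5 of them called. Among those the rule names, limma and library totals turned CYCL1-1 to 0.55 with each, CDKC-2 to 0.61 and 0.29, CYCB1-2 at Os02g0801300 to 0.58 and 0.55, CYCC1-1 to 0.24 with each and CDKE-1 to 0.15 with each. With the filter of 50 counts CYCL1-1 and CYCB1-2 stood at 0.03, and CYCB1-2 ran from -0.10 to 0.08 with 1 library left out. Depth limits the members with few blade counts, where differences between near-0 levels were not detectable. The blade genotypes, their interaction with tissue and the motif searches were not run.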
